A study of Schizosaccharomyces pombe with 16 samples.

Results

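The genes described here lie at both outer ends of chromosome I of the fission yeast Schizosaccharomyces pombe. They were taken by systematic ID, as every gene with an exon probe whose ID begins SPAC212. or SPAC977. (left end) or SPAC750. or SPAC186. (right end), without SPAC186.01. The rule used no measured value and gave 45 of the 5195 genes on the array, 12 in cosmid SPAC212, 17 in SPAC977, 8 in SPAC750 and 8 in SPAC186. The probe counted for SPAC212.12 is named nSPAC212.12 on the array, with a prefix that the sources used here do not explain, so its place among the 45 rests on the ID after the prefix. 5 of the 45 are annotated as pseudogenes and 13 have a gene symbol. The study compared strains carrying mutant forms of rpb1, the gene of the largest subunit of RNA polymerase II. Its C-terminal domain is a run of 7-residue repeats, and in every mutant here the domain was built from 18 "rump" repeats, as the labels call them, followed by 14 altered repeats. In S7A the seventh residue of the altered repeats, serine, was replaced by alanine, in S2A the second residue by alanine, in S2A/S7A both by alanine, and in S7E the seventh residue by glutamate. Cultures were harvested in mid-log phase in YES, a rich medium, and replicates of a strain came from separate cultures. Each two-colour array compared the RNA of 1 mutant culture with WT RNA. S7A has 4 arrays, S2A also 4, S2A/S7A has 5 and S7E has 3.

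Subtelomeres are the regions next to the telomere repeats. In fission yeast they are packed in heterochromatin, in which the methyltransferase Clr4 marks histone H3 at lysine 9, Swi6 binds that mark, and histone deacetylases such as Clr3 and Sir2 keep the histone tails deacetylated. Their genes include near-identical copies at several chromosome ends, many are expressed at low levels in growing cells, and many respond to nitrogen starvation or other stress. The serine residues at positions 2 and 7 of the C-terminal repeats are phosphorylated during transcription, alanine cannot be phosphorylated, and glutamate carries a negative charge.

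Values are log2 ratios of the mutant over WT, so 1 stands for a doubling and -1 for a halving. The base and the direction are likely rather than stated by the sources. A value given with ± is the fitted mean of a mutant and its standard error (limma), each mean was tested against 0, and a gene rose or fell where its Benjamini-Hochberg adjusted p over all 5163 genes tested was under 0.05. Whether arrays shared WT RNA is not given, so how far the spread of WT enters such a test is not known. The arrays carried 13061 to 14918 probe values each out of 15207 probes. Precision is limited by how many arrays each mutant has. Of 720 possible values of the 45 genes, 24 were missing. SPAC212.07c and ftm2 had 1 value in S7A and were not tested, which left 43. 3 arrays stood apart from the others of their mutant, namely replicate 4 of S7A, replicate 4 of S2A and replicate 1 of S7E. All 3 carried the mutant in Cy5. Replicate 1 was the only such array of S7E, so within S7E a stray array and the dye cannot be told apart. Without it, S7E rests on arrays with the mutant in Cy3 alone. Where leaving out 1 of these 3 arrays, or all 3 together, changes a call against WT, the value without them is given. Order in the series also went with some values. Replicates 1 to 3 of S7A and of S2A and 1 and 2 of S2A/S7A came first. The later arrays were replicate 4 of S7A and of S2A, 3 to 5 of S2A/S7A and every S7E array. In S2A and S2A/S7A, tlh1 read 3.15 to 3.27 on the earlier arrays and 2.25 to 2.45 on the later, with no such gap in S7A. SPAC212.07c had no value on the earlier arrays except S2A/S7A replicate 2. What the order stands for is not given. Each gene rested on 1 exon probe. Probe sequences were not used here, and whether a probe also reads a near-identical copy elsewhere was not tested.

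Rises outnumbered falls among the 43 genes in all 4 mutants, and the shares that rose were largest in S2A and S2A/S7A. In S2A, 32 rose and 7 fell, and in S2A/S7A 35 rose and 7 fell. In S7A, 22 rose and 3 fell, and in S7E 24 rose and 13 fell. Over all genes tested, 31.2% rose and 27.1% fell in S2A, 35.1% and 27.8% in S2A/S7A, 18.0% and 16.6% in S7A, and 33.5% and 27.6% in S7E. For the 43 genes the shares that rose were 74.4%, 81.4%, 51.2% and 55.8% in the same order, and the shares that fell were 16.3%, 16.3%, 6.98% and 30.2%. The median difference from WT of the 43 genes was 0.38 in S7A, 0.83 in S2A, 0.89 in S2A/S7A and 0.37 in S7E, beside 0.0027, 0.025, 0.043 and 0.038 over all genes tested. The share rising in S7E was above that over all genes by less than in S2A or S2A/S7A, and the share falling in S7E was close to that over all genes. The count falling in S7A was 1 without S7A replicate 4. All 4 mutants were read against WT RNA, and whether arrays shared it is not given.

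Larger changes were counted as those that passed and reached at least 1.5-fold. In S7A, 16 of the 43 genes rose that far and 1 fell, beside 2.13% and 1.63% of all genes tested. In S2A 25 rose and 2 fell, beside 6.55% and 4.96%, and in S2A/S7A 29 rose and 3 fell, beside 6.28% and 4.76%. In S7E 18 rose and 6 fell, beside 9.43% and 6.68%. The 1 gene that fell this far in S7A was gdt1.

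**Figure D1:**
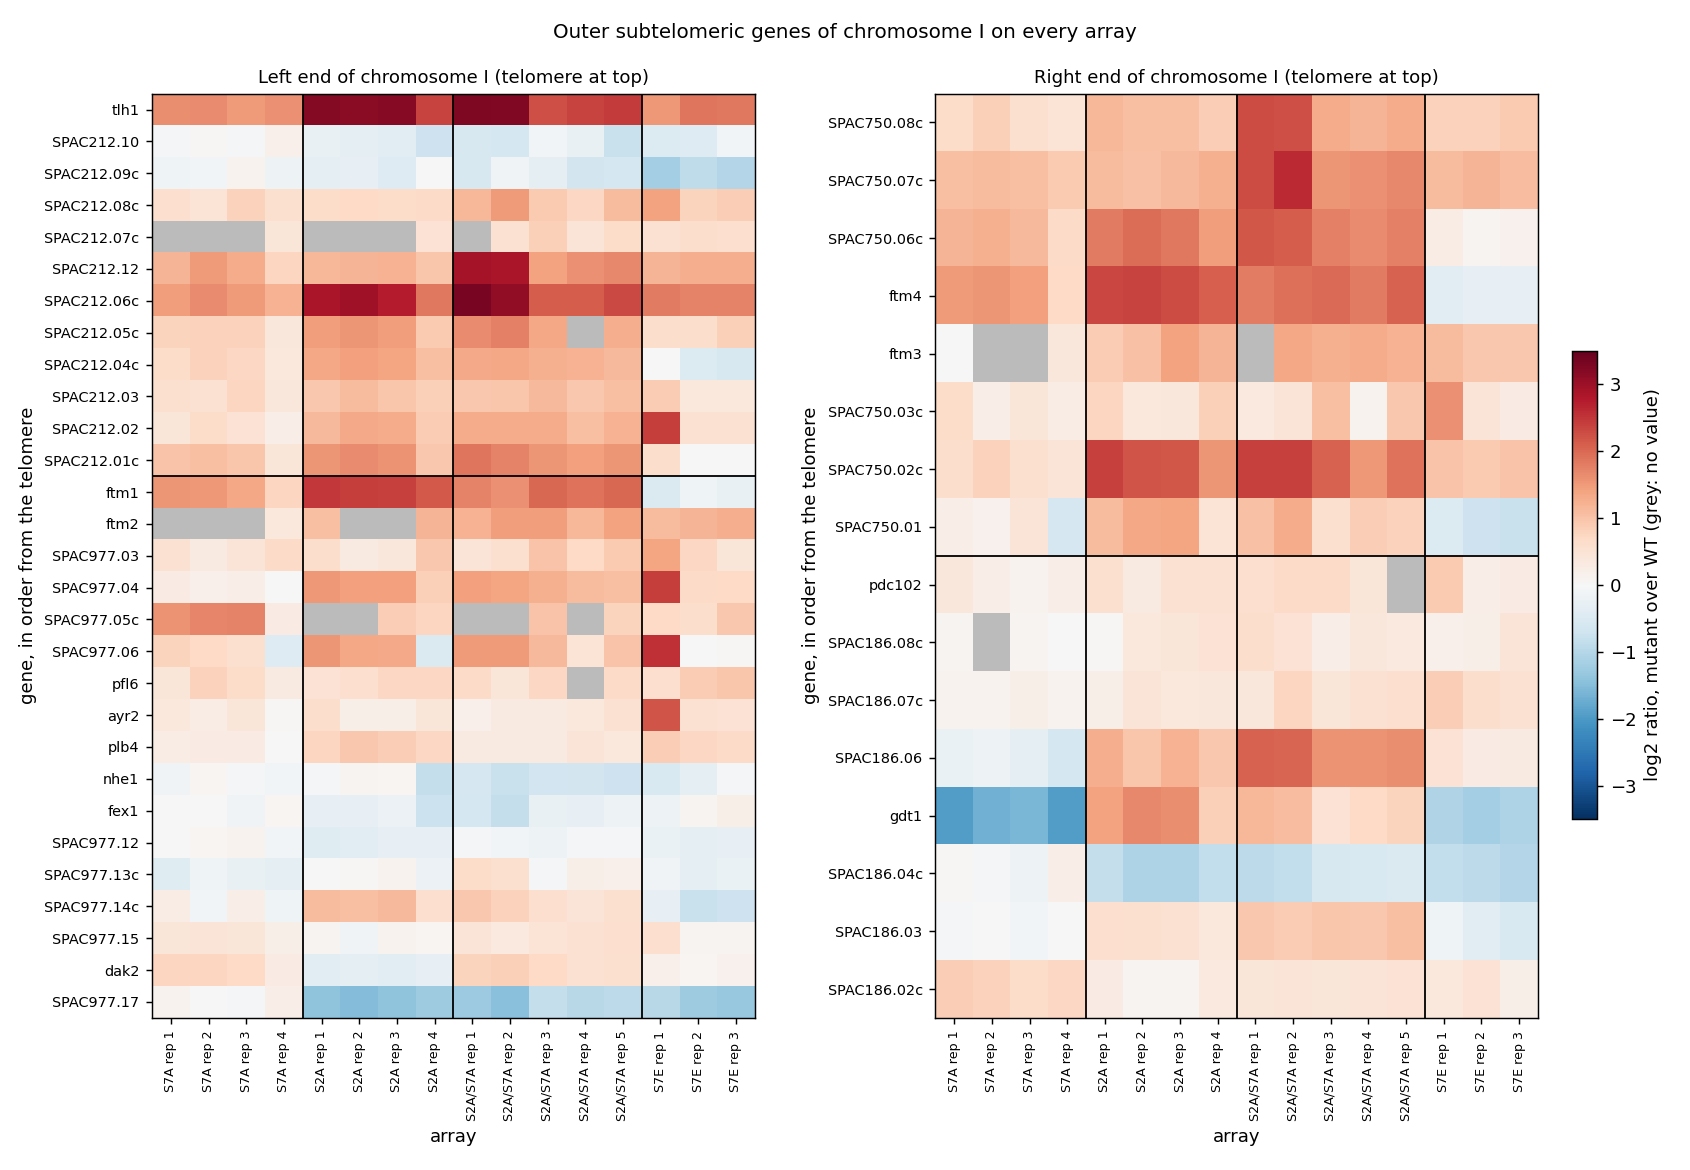
Log2 ratio, mutant over WT, of each of the 45 genes (rows, ordered from the telomere on top, left end and right end of chromosome I in separate panels) on each of the 16 arrays (columns, grouped by mutant), on a colour scale from -3.5 to 3.5 with grey for no value. tlh1 and SPAC212.06c near the left telomere are dark red in S2A and S2A/S7A, and ftm1 and ftm4 are red in S7A, S2A and S2A/S7A and pale blue in S7E.

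In cosmid SPAC212, which reaches nearest to the left telomere, 8 of the 11 genes tested rose in S7A and none fell, 9 rose and 2 fell in S2A and again in S2A/S7A, and 7 rose and 3 fell in S7E. The shares that rose were 72.7% in S7A, 81.8% in S2A and S2A/S7A and 63.6% in S7E, beside 18.0%, 31.2%, 35.1% and 33.5% over all genes. The 27.3% that fell in S7E was close to the 27.6% over all genes. The 18.2% that fell in S2A and S2A/S7A was below the 27.1% and 27.8% over all genes. The outermost gene, tlh1, encodes a RecQ-type DNA helicase linked to telomeres. On the 4 arrays of S7A tlh1 read 1.64, 1.65, 1.49 and 1.60, and on those of S2A 3.22, 3.15, 3.19 and 2.37. It read 3.27, 3.24, 2.25, 2.36 and 2.45 in S2A/S7A and 1.52, 1.86 and 1.84 in S7E. Every one of the 16 values was above 1.4, the S7A and S7E values overlapped each other, and all S2A and S2A/S7A values lay above them. The fitted rise was 1.59 ± 0.16 in S7A (adjusted p = 3.43e-06), 2.98 ± 0.16 in S2A (1.48e-09), 2.70 ± 0.15 in S2A/S7A (1.03e-09) and 1.72 ± 0.19 in S7E (2.6e-06). Within S2A/S7A, replicates 1 and 2 stood above replicates 3 to 5.

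The next genes inward, the pseudogenes SPAC212.10 and SPAC212.09c, were the only genes of this cosmid that fell in S2A or S2A/S7A. SPAC212.10 read -0.27, -0.32, -0.38 and -0.71 in S2A and -0.56, -0.62, -0.11, -0.27 and -0.77 in S2A/S7A, all below 0, and fell by 0.42 ± 0.10 and 0.47 ± 0.091. In S7A it read between -0.073 and 0.18, on both sides of 0. Its fall of 0.34 ± 0.12 in S7E was not called without S7E replicate 1 (-0.25, adjusted p = 0.188) or 2 (-0.29, 0.109). SPAC212.09c read -1.20, -0.89 and -1.03 in S7E, below every value of the other mutants, and fell by 1.02 ± 0.10 (adjusted p = 9.86e-07). It fell by 0.44 ± 0.08 in S2A/S7A, and its fall of 0.27 ± 0.088 in S2A was not called without S2A replicate 1 (-0.23, adjusted p = 0.0783) or 3 (-0.22, 0.0961).

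SPAC212.08c and SPAC212.12 rose in all 4 mutants. SPAC212.08c rose by 0.61 ± 0.10 in S7A, 0.66 ± 0.10 in S2A, 1.10 ± 0.092 in S2A/S7A and 1.04 ± 0.12 in S7E. The pseudogene SPAC212.07c between them had no value on 7 of the 16 arrays. Its single values were 0.44 in S7A and 0.51 in S2A, and it read 0.46 to 0.84 on 4 arrays of S2A/S7A and 0.54 to 0.61 on the 3 of S7E. SPAC212.12 read 1.20, 1.49, 1.31 and 0.76 in S7A, 1.16, 1.20, 1.23 and 0.96 in S2A and 1.19, 1.28 and 1.28 in S7E. In S2A/S7A it read 2.91, 2.85, 1.41, 1.59 and 1.68, so replicates 1 and 2 stood far above all other arrays, while replicate 3 overlapped the S7A values. Its fitted rises were 1.19 ± 0.20, 1.14 ± 0.20 and 1.22 ± 0.24 in S7A, S2A and S7E, and 2.07 ± 0.18 in S2A/S7A (adjusted p = 1.55e-07).

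SPAC212.06c had values close to those of tlh1. It read 1.47, 1.64, 1.48 and 1.22 in S7A and 2.86, 2.97, 2.75 and 1.85 in S2A. In S2A/S7A it read 3.33, 3.09, 2.12, 2.12 and 2.30, and in S7E 1.83, 1.73 and 1.72. The S7A and S7E values did not overlap, and all S2A and S2A/S7A values lay above both. The rises were 1.45 ± 0.19, 2.61 ± 0.19, 2.58 ± 0.17 and 1.73 ± 0.22 in S7A, S2A, S2A/S7A and S7E, with the largest adjusted p at 4.16e-05 in S7A. The pseudogene SPAC212.05c rose less, by 0.70 ± 0.10, 1.35 ± 0.10, 1.52 ± 0.10 and 0.67 ± 0.12 in the same order.

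SPAC212.04c rose in 3 mutants and fell in S7E. It read 0.64, 0.80, 0.73 and 0.38 in S7A and 1.34, 1.43, 1.37 and 1.05 in S2A. In S2A/S7A it read 1.32, 1.36, 1.24, 1.21 and 1.14, and in S7E 0.012, -0.47 and -0.56. The S7E values lay below all others, and the S2A and S2A/S7A values lay above all S7A values. The rises were 0.64 ± 0.09, 1.30 ± 0.09 and 1.25 ± 0.081 in S7A, S2A and S2A/S7A. The fall of 0.34 ± 0.10 in S7E was not called without S7E replicate 2 (-0.27, adjusted p = 0.0842) or 3 (-0.23, 0.120), and was -0.57 (adjusted p = 0.000242) without S7E replicate 1.

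The next 2 genes inward, SPAC212.03 and SPAC212.02, rose in S2A, S2A/S7A and S7E. SPAC212.03 rose by 0.56 ± 0.08 in S7A, 0.96 ± 0.08 in S2A, 1.01 ± 0.072 in S2A/S7A and 0.54 ± 0.094 in S7E, the last falling to 0.32 (adjusted p = 0.00553) without S7E replicate 1. SPAC212.02 rose by 1.16 ± 0.21 in S2A and 1.26 ± 0.19 in S2A/S7A. In S7E it read 2.42, 0.54 and 0.54, 1 array standing apart from the other 2, and its rise of 1.20 ± 0.24 was 0.47 (adjusted p = 0.00179) without replicate 1. In S7A it read 0.43, 0.64, 0.50 and 0.23, a difference of 0.45 ± 0.21 (adjusted p = 0.107), which passed the threshold without S7E replicate 1 (0.45, adjusted p = 0.000147).

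The innermost gene of the cosmid, SPAC212.01c, read 1.01, 1.06, 0.98 and 0.41 in S7A and 1.56, 1.65, 1.57 and 0.95 in S2A. It read 1.88, 1.74, 1.55, 1.45 and 1.54 in S2A/S7A and 0.61, -0.017 and 0.012 in S7E. The S7E values overlapped S7A replicate 4 alone, and the S2A values overlapped those of S7A through S2A replicate 4. The rises were 0.87 ± 0.13 (adjusted p = 0.000141), 1.43 ± 0.13 (3.12e-07) and 1.62 ± 0.12 (1.83e-08), and in S7E the difference was 0.19 ± 0.15 (adjusted p = 0.29).

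**Figure D2:**
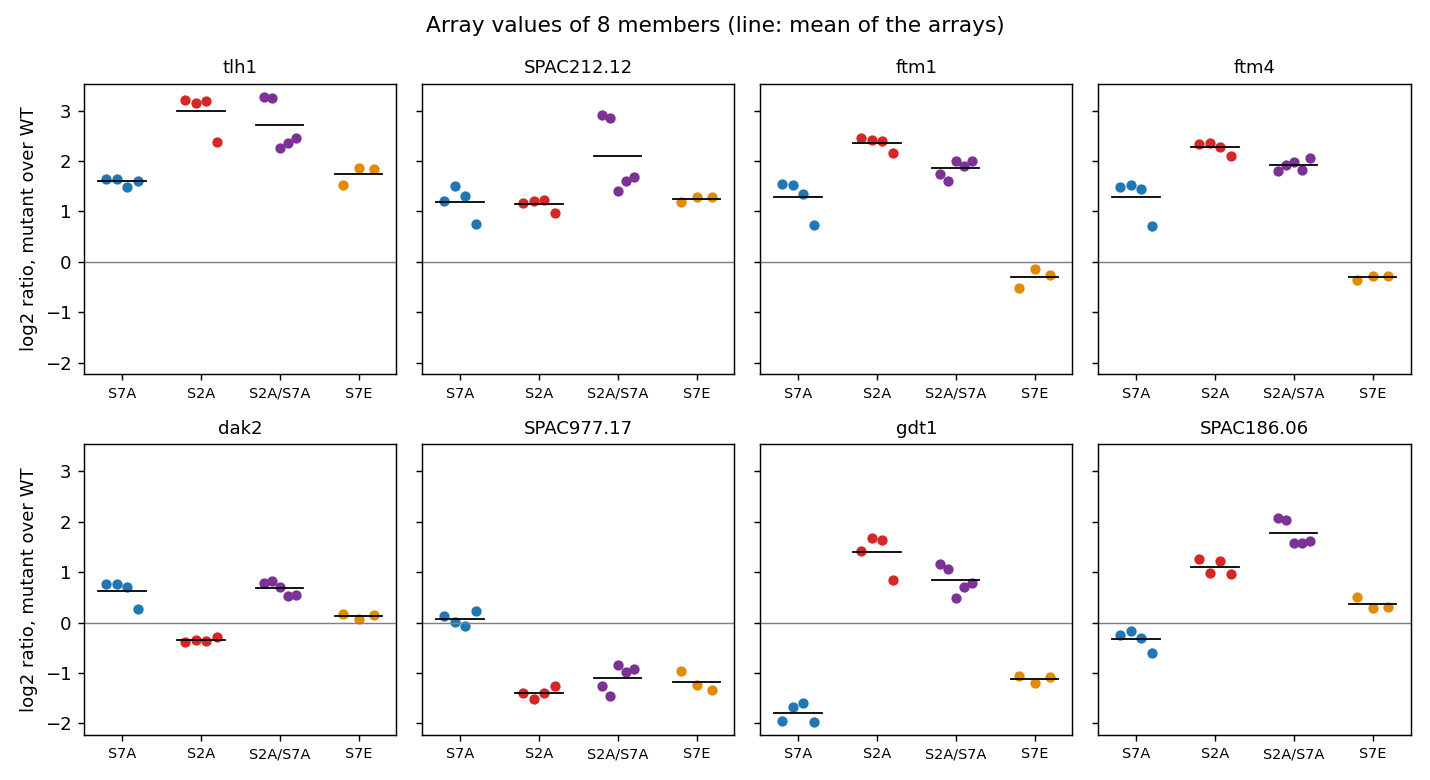
Log2 ratio, mutant over WT, on every array (points) with the mean of the arrays of each mutant (lines) for 8 genes. tlh1 and SPAC212.12 are above 0 on every array, ftm1 and ftm4 are below 0 on the 3 S7E arrays alone, and gdt1 is below 0 in S7A and S7E and above 0 in S2A and S2A/S7A.

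Cosmid SPAC977 continues the left end inward. Of its 16 genes tested, 7 rose and 1 fell in S7A, 8 rose and 4 fell in S2A, 11 rose and 4 fell in S2A/S7A, and 7 rose and 5 fell in S7E. In the same order, shares rising were 43.8%, 50.0%, 68.8% and 43.8%, beside 18.0%, 31.2%, 35.1% and 33.5% over all genes. Shares falling were 6.25%, 25.0%, 25.0% and 31.2%, beside 16.6%, 27.1%, 27.8% and 27.6%. Of these, the 43.8% that rose and 31.2% that fell in S7E and the 25.0% that fell in S2A and in S2A/S7A were near those over all genes. Its first gene, ftm1, had the highest values of the cosmid in S2A. It read 1.54, 1.52, 1.35 and 0.74 in S7A and 2.46, 2.42, 2.39 and 2.15 in S2A. In S2A/S7A it read 1.74, 1.61, 2.00, 1.90 and 2.01, and in S7E -0.51, -0.15 and -0.26. The 4 mutants did not overlap, S7E being lowest, then S7A, S2A/S7A and S2A. The rises were 1.29 ± 0.10 (adjusted p = 2.52e-07), 2.36 ± 0.10 (1.44e-10) and 1.83 ± 0.091 (4.05e-10) in S7A, S2A and S2A/S7A. The fall of 0.34 ± 0.12 in S7E, present on all 3 arrays, was not called without S7E replicate 1 (-0.28, adjusted p = 0.142) or 3 (-0.33, 0.0741). It also missed the threshold with arrays scaled to equal spread (-0.28, 0.228).

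ftm2, the next gene, read 0.37 on its only S7A array and 1.06 and 1.20 on 2 arrays of S2A. It read 1.22, 1.47, 1.45, 1.16 and 1.41 in S2A/S7A and 1.11, 1.20 and 1.27 in S7E. All were above 0, and the 3 S7E values lay within the range of those in S2A and S2A/S7A, unlike for ftm1. SPAC977.03 rose in all 4 mutants, by 0.50 ± 0.10 in S7A, 0.56 ± 0.10 in S2A, 0.75 ± 0.093 in S2A/S7A and 0.90 ± 0.12 in S7E.

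SPAC977.04 read 0.29, 0.17, 0.25 and 0.0085 in S7A and 1.52, 1.44, 1.42 and 0.84 in S2A. It read 1.45, 1.39, 1.24, 1.10 and 1.06 in S2A/S7A and 2.42, 0.67 and 0.70 in S7E. All S2A and S2A/S7A values lay above all S7A values, and 1 S7E array stood far above the rest. It rose by 1.31 ± 0.20 in S2A (adjusted p = 4.49e-05), 1.27 ± 0.18 in S2A/S7A (1.79e-05) and 1.31 ± 0.23 in S7E (0.000195), the last at 0.66 (adjusted p = 0.00141) without S7E replicate 1. In S7A its difference was 0.18 ± 0.20 (adjusted p = 0.518), and it passed without the 3 arrays that stand apart (0.25, 0.00515) and with array weights (0.23, 0.0155).

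SPAC977.05c had values on 2 arrays of S2A and 2 of S2A/S7A. It read 1.58, 1.70, 1.74 and 0.29 in S7A and 0.70, 0.61 and 0.95 in S7E, and 0.87 and 0.74 in S2A and 1.01 and 0.77 in S2A/S7A. Its rise of 1.33 ± 0.19 in S7A (adjusted p = 0.000463) came with replicate 4 well below the other 3 arrays. The rises in the other mutants rested on single arrays. The rise of 0.80 ± 0.27 in S2A was not called without S2A replicate 3 (0.91, adjusted p = 0.103) or 4 (0.70, 0.181), and that of 0.89 ± 0.27 in S2A/S7A without S2A/S7A replicate 3 (0.56, 0.260). The rise of 0.71 ± 0.22 in S7E was not called without S7E replicate 1 (0.60, adjusted p = 0.121) or 3 (0.65, 0.0770), and all 3 were lost with arrays scaled to equal spread.

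SPAC977.06 varied widely between arrays. It read 0.79, 0.70, 0.57 and -0.46 in S7A, 1.54, 1.35, 1.34 and -0.50 in S2A, 1.5, 1.5, 1.13, 0.49 and 1.01 in S2A/S7A and 2.55, -0.0009 and 0.044 in S7E. It rose in S2A/S7A by 1.15 ± 0.34 (adjusted p = 0.00917). The rise of 0.93 ± 0.38 in S2A (adjusted p = 0.0481) was 1.49 (adjusted p = 0.00273) without S2A replicate 4, and was not called when any other array of S2A (0.74 to 0.75, adjusted p = 0.179 to 0.191), any array of S2A/S7A or S7A replicate 1, 2 or 3 (0.93, adjusted p = 0.0529 to 0.0592) was left out. The differences of 0.40 ± 0.38 in S7A (adjusted p = 0.452) and 0.90 ± 0.45 in S7E (0.0949) did not pass. The S7A difference, with replicate 4 alone below 0, was 0.72 (adjusted p = 0.000463) without the 3 arrays that stand apart, 0.66 (0.00108) with array weights and 0.65 (0.00297) with all probes of the gene averaged. The S7E difference was -0.12 without S7E replicate 1, passed without S2A replicate 4 (0.94, adjusted p = 0.0329), and was 0.94 (0.000282) with all probes averaged.

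The next 3 genes encode proteins of the cell surface and of lipid metabolism. pfl6, a gene of the flocculin family of cell-surface glycoproteins, rose in all 4 mutants, by 0.55 ± 0.066 in S7A, 0.63 ± 0.066 in S2A, 0.63 ± 0.066 in S2A/S7A and 0.78 ± 0.077 in S7E. plb4, which encodes a phospholipase B, also rose in all 4. It read 0.26, 0.28, 0.30 and 0.015 in S7A and 0.76, 0.95, 0.87 and 0.74 in S2A, and 0.32, 0.31, 0.31, 0.45 and 0.37 in S2A/S7A and 0.86, 0.73 and 0.67 in S7E. All S2A and S7E values lay above all S7A and S2A/S7A values. Its rises were 0.21 ± 0.051 in S7A (adjusted p = 0.00473), 0.83 ± 0.051 in S2A (5.34e-09), 0.34 ± 0.046 in S2A/S7A (1.24e-05) and 0.74 ± 0.06 in S7E (9.52e-08). ayr2, named after an acyl-dihydroxyacetone-phosphate reductase gene of budding yeast, read 2.21, 0.54 and 0.50 in S7E, where its rise of 1.14 ± 0.20 was 0.54 (adjusted p = 0.00132) without replicate 1. In the other mutants ayr2 was above 0 on every array, with differences of 0.28 ± 0.18 in S7A, 0.36 ± 0.18 in S2A and 0.37 ± 0.16 in S2A/S7A that did not pass (adjusted p = 0.248, 0.0916 and 0.0504). Without S7E replicate 1, all 3 passed, at 0.28 (adjusted p = 0.0105), 0.36 (0.000810) and 0.35 (0.000425), and the S2A/S7A difference also passed without S7A replicate 3 (0.38, 0.0491) or 4 (0.38, 0.0425) or S7E replicate 2 (0.37, 0.0443) or 3 (0.37, 0.0417).

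From nhe1 inward the rises gave way to a mixed picture. Of the 8 genes from nhe1 to SPAC977.17, 2 rose and 1 fell in S7A, 1 rose and 4 fell in S2A, 4 rose and 4 fell in S2A/S7A, and 1 rose and 4 fell in S7E. In the 19 genes tested from tlh1 to plb4, the counts were 13 and 0 in S7A, 16 and 2 in S2A, 16 and 2 in S2A/S7A, and 13 and 4 in S7E. Over all genes tested, 18.0% rose and 16.6% fell in S7A, and 31.2% and 27.1% in S2A. In S2A/S7A 35.1% rose and 27.8% fell, and in S7E 33.5% and 27.6%. The 2 rises and 1 fall among the 8 genes in S7A were near the shares over all genes. The boundary between the groups of 8 and 19 genes was chosen after the values were seen, and no difference between them was tested.

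nhe1, also called sod2, encodes the sodium-proton antiporter of the plasma membrane. It fell by 0.71 ± 0.086 in S2A/S7A (adjusted p = 4.43e-06), where it read -0.60, -0.79, -0.66, -0.65 and -0.72. In S2A it read -0.064, 0.084, 0.061 and -0.83, near 0 on all arrays but replicate 4, and the difference of -0.19 ± 0.095 did not pass (adjusted p = 0.108), but passed without S2A replicate 1 (-0.28, 0.0392). Its fall of 0.35 ± 0.11 in S7E was not called without S7E replicate 1 (-0.31, adjusted p = 0.0911) or 2 (-0.30, 0.0807). In S7A it stayed between -0.13 and 0.068.

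fex1, which encodes a fluoride exporter, fell by 0.38 ± 0.097 in S2A (adjusted p = 0.00338) and by 0.45 ± 0.087 in S2A/S7A (0.000356). It was below 0 on all 9 arrays of these mutants, between -0.84 and -0.18. In S7A and S7E it read on both sides of 0, with differences of -0.018 ± 0.097 and 0.012 ± 0.11. SPAC977.12 fell by 0.35 ± 0.043 in S2A and by 0.29 ± 0.05 in S7E, and was below 0 on every array of both. Its fall of 0.097 ± 0.038 in S2A/S7A (adjusted p = 0.0389) was lost when any array of S2A/S7A was left out (-0.11 to -0.079, adjusted p = 0.0566 to 0.145), and without S7A replicate 2 (0.0514) or S2A replicate 3 (0.0519).

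The pseudogene SPAC977.13c had calls in opposite directions that rested on single arrays. Its fall of 0.29 ± 0.092 in S7A was not called without S7A replicate 1 (-0.26, adjusted p = 0.103), 3 (-0.29, 0.0642) or 4 (-0.29, 0.0707). Its rise of 0.30 ± 0.083 in S2A/S7A was not called without S2A/S7A replicate 2 (0.20, 0.0543). In S7E the difference of -0.25 ± 0.11 (adjusted p = 0.0589) passed without S7E replicate 1 (-0.36, 0.0377) or S2A/S7A replicate 1 (-0.24, 0.0466), 2 (-0.26, 0.0294) or 3 (-0.23, 0.0446). SPAC977.14c rose in S2A and S2A/S7A and fell in S7E. It read 1.11, 1.05, 1.13 and 0.59 in S2A and 0.95, 0.81, 0.59, 0.46 and 0.55 in S2A/S7A, and -0.30, -0.77 and -0.72 in S7E. The S7E values lay below all others, and S7A, at 0.26, -0.11, 0.24 and -0.16, lay between. The rises were 0.97 ± 0.11 (adjusted p = 2.63e-06) and 0.68 ± 0.098 (2.83e-05), the fall 0.59 ± 0.13 (0.00103), and the S7A difference 0.059 ± 0.11 (0.715).

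SPAC977.15 rose by 0.38 ± 0.074 in S7A (adjusted p = 0.00125) and 0.48 ± 0.067 in S2A/S7A (1.8e-05), while in S2A the difference was 0.042 ± 0.074. Its rise of 0.26 ± 0.087 in S7E was 0.060 (adjusted p = 0.555) without S7E replicate 1. The next gene, dak2, encodes a dihydroxyacetone kinase. It read 0.76, 0.76, 0.70 and 0.27 in S7A and 0.78, 0.82, 0.70, 0.54 and 0.55 in S2A/S7A, but -0.38, -0.35, -0.36 and -0.28 in S2A, and 0.17, 0.081 and 0.15 in S7E. All S2A values were below 0 and below every other array. dak2 rose by 0.62 ± 0.072 in S7A (adjusted p = 1.13e-05) and 0.68 ± 0.065 in S2A/S7A (3.73e-07), fell by 0.34 ± 0.072 in S2A (0.000842), and differed by 0.14 ± 0.084 in S7E (0.176), where it passed without S7A replicate 4 (0.15, 0.0302).

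SPAC977.17, the innermost gene of the left end described here, had the largest falls of that end in S2A, S2A/S7A and S7E. It read -1.40, -1.52, -1.40 and -1.25 in S2A, -1.27, -1.45, -0.84, -0.98 and -0.91 in S2A/S7A and -0.96, -1.23 and -1.33 in S7E. Its S7A values were 0.13, 0.012, -0.078 and 0.23, between -0.078 and 0.23 and above all values of the other mutants. It fell by 1.39 ± 0.086 in S2A (adjusted p = 5.49e-09), by 1.08 ± 0.078 in S2A/S7A (1.68e-08) and by 1.16 ± 0.10 in S7E (2.15e-07), and differed by 0.073 ± 0.086 in S7A (0.545). The annotated extents of dak2 and SPAC977.17 overlap each other, the only overlap with a coding gene among the 45, so signal of 1 on the probe of the other cannot be told apart here.

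**Figure D3:**
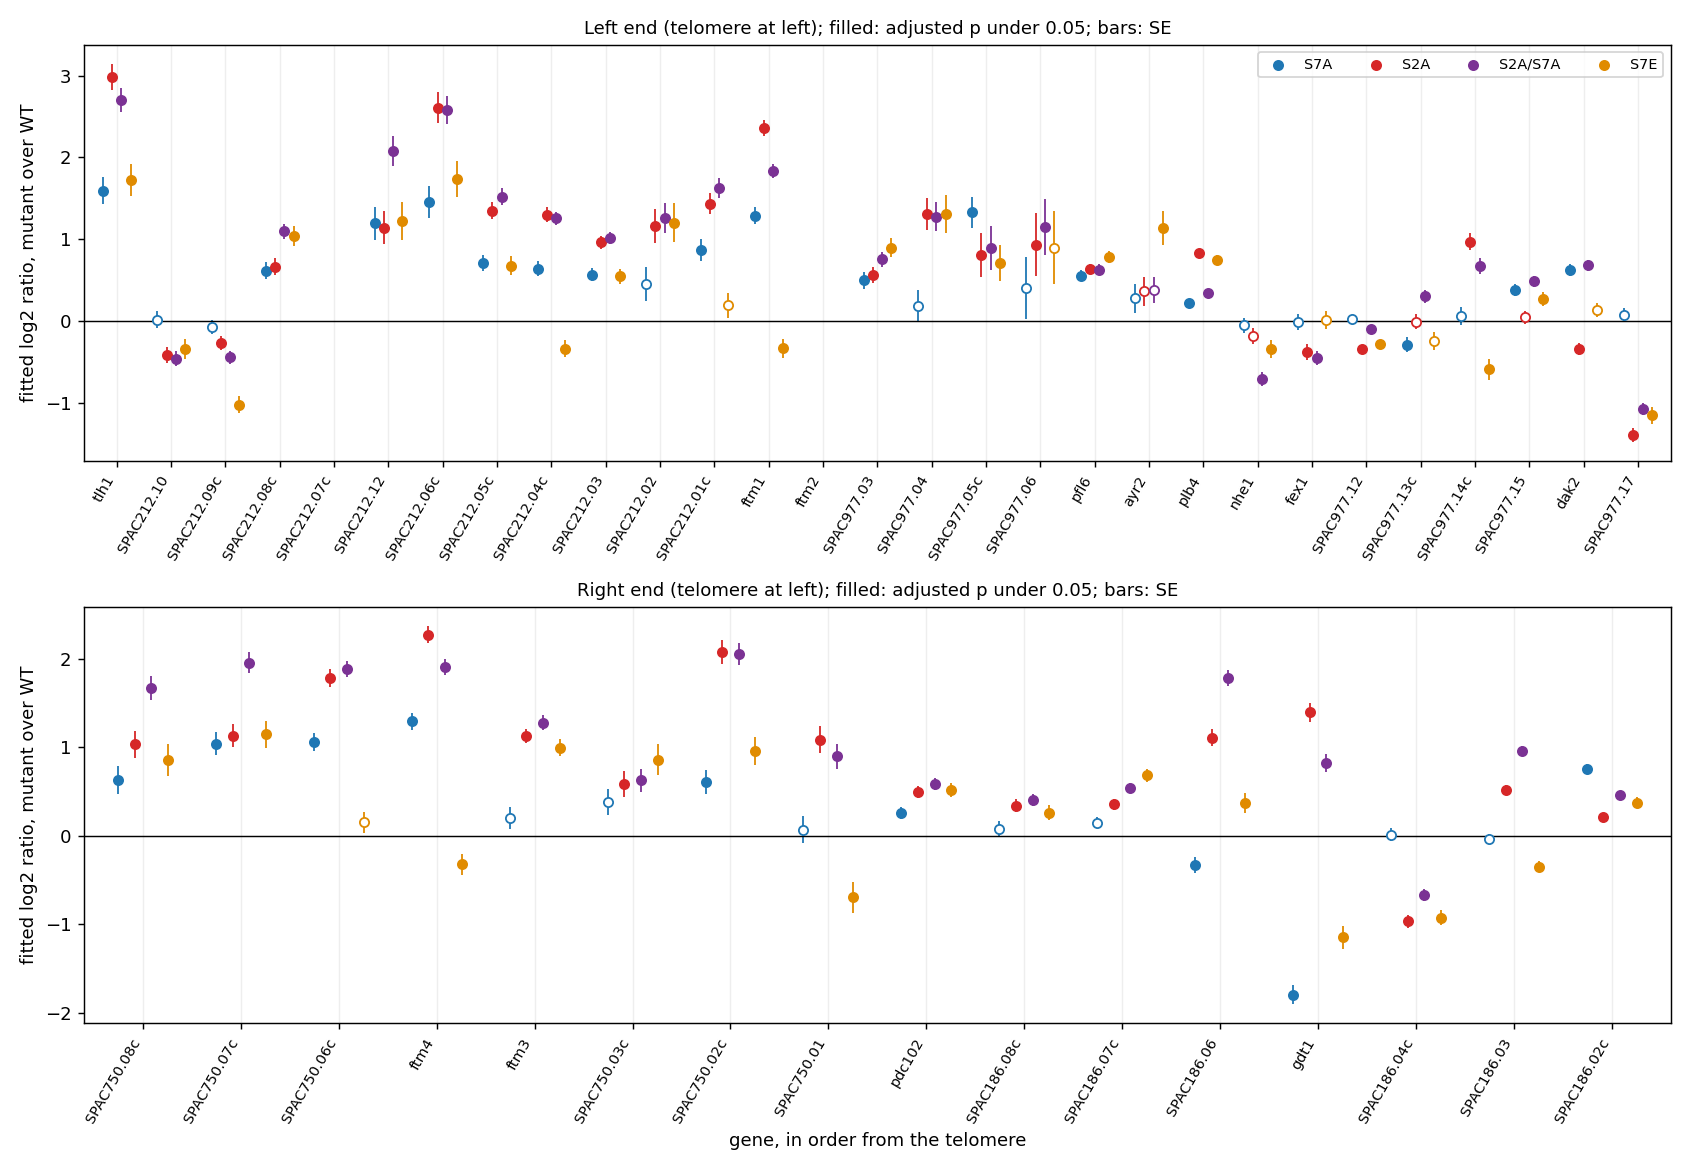
Fitted log2 difference from WT (y axis, point) with its standard error (bar) for the 43 tested genes in their order from the telomere (x axis, rank, not distance), by mutant and chromosome end, with filled points for an adjusted p under 0.05. The left-end genes from tlh1 to plb4 are mostly above 0 and those from nhe1 inward lie on both sides of 0, and on the right end the SPAC750 genes are above 0 in S2A and S2A/S7A.

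On the right end, all 8 genes of cosmid SPAC750 rose in S2A and in S2A/S7A. In S7A 5 rose and none fell, and in S7E 5 rose and 2 fell. The share that rose was 62.5% in S7A and in S7E, beside 18.0% and 33.5% over all genes. In S2A and S2A/S7A 31.2% and 35.1% of all genes rose. The 25.0% that fell in S7E was close to the 27.6% over all genes. The outermost, SPAC750.08c, read 0.65, 0.82, 0.56 and 0.48 in S7A and 1.16, 1.06, 1.04 and 0.85 in S2A. In S2A/S7A it read 2.27, 2.26, 1.30, 1.19 and 1.30, and in S7E 0.81, 0.81 and 0.92. All 16 values were above 0.4, and S2A/S7A replicates 1 and 2 stood apart from the other 3, which themselves lay above all S2A values. The rises were 0.63 ± 0.15, 1.03 ± 0.15, 1.67 ± 0.14 and 0.85 ± 0.18 in S7A, S2A, S2A/S7A and S7E.

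SPAC750.07c showed the same split in S2A/S7A. It read 2.28, 2.62, 1.55, 1.60 and 1.68 there, above every value in S7A (1.06, 1.12, 1.07 and 0.91), S2A (1.10, 1.03, 1.14 and 1.25) and S7E (1.12, 1.20 and 1.09), which overlapped each other. The rises were 1.95 ± 0.12 in S2A/S7A (adjusted p = 2.92e-09), 1.04 ± 0.13 in S7A, 1.13 ± 0.13 in S2A and 1.15 ± 0.15 in S7E. SPAC750.06c read 1.18, 1.25, 1.14 and 0.66 in S7A and 1.82, 1.97, 1.85 and 1.47 in S2A, and 2.18, 2.11, 1.76, 1.65 and 1.77 in S2A/S7A. In S7E it read 0.26, 0.086 and 0.16, below every other array. The rises were 1.06 ± 0.10 (adjusted p = 1.83e-06), 1.78 ± 0.10 (2.38e-09) and 1.88 ± 0.092 (3.34e-10), and the S7E difference was 0.15 ± 0.12 (0.279).

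ftm4 gave nearly the same readings as ftm1 on the left end. It read 1.49, 1.53, 1.45 and 0.70 in S7A and 2.34, 2.35, 2.28 and 2.10 in S2A. In S2A/S7A it read 1.80, 1.93, 1.98, 1.82 and 2.07, and in S7E -0.36, -0.27 and -0.28. The 4 mutants did not overlap, in the order S7E, S7A, S2A/S7A, S2A. The rises were 1.29 ± 0.098 (adjusted p = 1.74e-07), 2.27 ± 0.098 (1.46e-10) and 1.91 ± 0.088 (2.51e-10). The fall of 0.33 ± 0.11 in S7E, negative on all 3 arrays, was not called without any 1 of them (-0.34 to -0.32, adjusted p = 0.0716 to 0.0757), nor with arrays scaled to equal spread (-0.28, 0.229). ftm3, next to ftm4, did not fall in S7E. It read 1.10, 0.94 and 0.95 there, 0.89, 1.02, 1.41 and 1.18 in S2A and 1.35, 1.24, 1.29 and 1.23 on 4 arrays of S2A/S7A, and rose by 0.99 ± 0.096, 1.12 ± 0.082 and 1.28 ± 0.082. On its 2 S7A arrays ftm3 read -0.0058 and 0.38, and the difference was 0.20 ± 0.13 (adjusted p = 0.261).

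SPAC750.03c rose by 0.58 ± 0.15 in S2A, 0.62 ± 0.13 in S2A/S7A and 0.86 ± 0.17 in S7E, the last at 0.51 (adjusted p = 0.0241) without S7E replicate 1. In S7A it was above 0 on all 4 arrays, between 0.23 and 0.63, with a difference of 0.38 ± 0.15 (adjusted p = 0.0553). That difference passed without S7A replicate 4 (0.51, adjusted p = 0.0342), S2A/S7A replicate 2 (0.0456) or 5 (0.0332), or S7E replicate 1 (0.0149) or 3 (0.0486), and without the 3 arrays that stand apart (0.48, 0.0073).

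SPAC750.02c had the largest rise of the cosmid in S2A/S7A. It read 2.38, 2.20, 2.17 and 1.55 in S2A and 2.40, 2.40, 2.06, 1.51 and 1.91 in S2A/S7A. In S7A it read 0.62, 0.81, 0.55 and 0.45, and in S7E 0.99, 0.91 and 0.99. All S2A and S2A/S7A values lay above all S7E values, which lay above all S7A values. The rises were 2.08 ± 0.14 (adjusted p = 9.47e-09), 2.05 ± 0.12 (2.46e-09), 0.61 ± 0.14 (0.00295) and 0.96 ± 0.16 (0.000114) in S2A, S2A/S7A, S7A and S7E.

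SPAC750.01 rose in S2A and S2A/S7A and fell in S7E. It read 1.12, 1.36, 1.37 and 0.48 in S2A and 1.04, 1.30, 0.57, 0.87 and 0.80 in S2A/S7A. In S7E it read -0.47, -0.73 and -0.79, and in S7A 0.24, 0.16, 0.44 and -0.58. All S2A and S2A/S7A values were above the S7A values, and S7A replicate 4 lay among the S7E values. The rises were 1.08 ± 0.15 (adjusted p = 2.56e-05) and 0.89 ± 0.14 (4.74e-05), the fall 0.70 ± 0.18 (0.00366), and the S7A difference 0.064 ± 0.15 (0.779). That difference rested on S7A replicate 4, the only S7A array below 0, and was 0.27 (adjusted p = 0.048) without the 3 arrays that stand apart and 0.23 (0.0184) with array weights.

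Cosmid SPAC186 continues the right end inward. Of its 8 genes, 2 rose and 2 fell in S7A, 7 rose and 1 fell in S2A and again in S2A/S7A, and 5 rose and 3 fell in S7E. Its first 3 genes gave small rises. pdc102, which encodes a pyruvate decarboxylase, rose by 0.49 ± 0.069 in S2A, 0.59 ± 0.069 in S2A/S7A and 0.51 ± 0.081 in S7E, the last at 0.33 (adjusted p = 0.00211) without S7E replicate 1. Its rise of 0.25 ± 0.069 in S7A was not called without S7A replicate 1 (0.24, adjusted p = 0.0515) or 2 (0.22, 0.0755). SPAC186.08c rose by 0.34 ± 0.072 in S2A and 0.40 ± 0.065 in S2A/S7A, and its rise of 0.26 ± 0.084 in S7E was not called without S7E replicate 3 (0.19, adjusted p = 0.131). SPAC186.07c rose by 0.35 ± 0.063, 0.54 ± 0.057 and 0.68 ± 0.073 in S2A, S2A/S7A and S7E. In S7A the differences of SPAC186.08c and SPAC186.07c were 0.079 ± 0.084 and 0.14 ± 0.063.

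SPAC186.06 rose in S2A and S2A/S7A. It read 1.27, 0.98, 1.22 and 0.96 in S2A and 2.08, 2.04, 1.58, 1.58 and 1.62 in S2A/S7A. In S7A it read -0.24, -0.18, -0.31 and -0.61, and in S7E 0.51, 0.28 and 0.32. The 4 mutants did not overlap, in the order S7A, S7E, S2A, S2A/S7A. The rises were 1.11 ± 0.096 (adjusted p = 1.8e-07) and 1.78 ± 0.086 (3.34e-10). The fall of 0.33 ± 0.096 in S7A was not called without S7A replicate 4 (-0.23, adjusted p = 0.112), and the rise of 0.37 ± 0.11 in S7E not without S7E replicate 1 (0.28, 0.115).

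gdt1 had the widest spread between mutants of the 43 genes tested. It is named after a budding yeast gene of a Golgi membrane transporter. It read -1.95, -1.68, -1.59 and -1.96 in S7A and -1.06, -1.20 and -1.07 in S7E, all below -1. In S2A it read 1.42, 1.68, 1.63 and 0.84, and in S2A/S7A 1.16, 1.07, 0.49, 0.71 and 0.78, all above 0.4. The S7A values lay below all S7E values, and the S2A values overlapped those of S2A/S7A through S2A replicate 4. gdt1 fell by 1.80 ± 0.11 in S7A (adjusted p = 1.95e-08) and by 1.15 ± 0.13 in S7E (2.44e-06), and rose by 1.39 ± 0.11 in S2A (5.78e-08) and 0.82 ± 0.098 in S2A/S7A (3.97e-06).

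SPAC186.04c was the only gene of the right end that fell in S2A or S2A/S7A. It read -0.84, -1.08, -1.09 and -0.87 in S2A, -0.93, -0.88, -0.56, -0.54 and -0.50 in S2A/S7A and -0.87, -0.92 and -1.04 in S7E. In S7A it read 0.035, -0.036, -0.18 and 0.22, on both sides of 0 and above all other arrays. It fell by 0.97 ± 0.074 (adjusted p = 4.45e-08), by 0.67 ± 0.067 (5.83e-07) and by 0.93 ± 0.086 (4.4e-07).

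The last 2 genes inward differed between the alanine mutants. SPAC186.03 read 0.60, 0.57, 0.53 and 0.36 in S2A and 0.94, 0.88, 0.98, 0.94 and 1.05 in S2A/S7A, and -0.15, -0.38 and -0.53 in S7E. Its S7A values were -0.03, -0.0081, -0.11 and -0.023, near 0 on every array, and no mutant overlapped another. It rose by 0.51 ± 0.056 (adjusted p = 1.95e-06) and 0.96 ± 0.05 (6.79e-10) and fell by 0.35 ± 0.065 (0.000334). SPAC186.02c rose in all 4 mutants. It read 0.86, 0.80, 0.63 and 0.71 in S7A, above every other array, and 0.28, 0.091, 0.099 and 0.35 in S2A, and rose by 0.75 ± 0.055 and 0.20 ± 0.055. The rises in S2A/S7A and S7E were 0.45 ± 0.049 and 0.37 ± 0.064.

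Differences between mutants were tested directly. S2A stood above S7A for 18 of the 43 genes and below it for 8, with 21.9% and 20.1% of all genes tested called in these directions. For the 43 genes the shares were 41.9% and 18.6%, the latter close to the background. The split depended on the scale of the arrays: with arrays scaled to equal spread it was 10 above and 9 below. The count below was 5 without S7A replicate 2. gdt1 differed most, by 3.19 ± 0.15 (adjusted p = 1.52e-09), followed among the higher genes by SPAC750.02c (1.47 ± 0.19), SPAC186.06 (1.44 ± 0.14), tlh1 (1.39 ± 0.23), SPAC212.06c (1.15 ± 0.27), SPAC977.04 (1.13 ± 0.28), ftm1 (1.07 ± 0.14), SPAC750.01 (1.02 ± 0.22) and ftm4 (0.98 ± 0.14). The lowest were SPAC977.17 (-1.47 ± 0.12), SPAC186.04c (-0.98 ± 0.10) and dak2 (-0.97 ± 0.10). SPAC750.07c, at 0.09 ± 0.19, was not called in this comparison (adjusted p = 0.73), and read -0.48 (adjusted p = 0.0299) with scaled arrays.

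Against S7A, S2A/S7A was higher for 26 genes and lower for 7, beside 22.7% and 18.8% of all genes tested. The shares of the 43 genes were 60.5% and 16.3%, the latter close to the background. With scaled arrays the split was 12 and 7. Most S2A/S7A arrays but only replicate 4 of S7A came later in the series, so mutant and order cannot be fully told apart here either. gdt1 (2.62 ± 0.15), SPAC186.06 (2.11 ± 0.13), SPAC750.02c (1.44 ± 0.18) and SPAC212.06c (1.12 ± 0.26) were among the highest, and SPAC977.17 (-1.15 ± 0.12) was the lowest. ftm1 (0.55 ± 0.14) and ftm4 (0.61 ± 0.13) were also higher, but read -0.15 (adjusted p = 0.614) and -0.098 (0.753) with scaled arrays, so their direction was not fixed. dak2 (0.056 ± 0.097, adjusted p = 0.684) showed no call.

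Between the 2 strains that share the S2A change, S2A/S7A was higher than S2A for 11 genes and lower for 4, beside 12.0% and 11.3% of all genes tested, which is close to the background for the lower genes. The count higher was 6 without S2A replicate 2 or S2A replicate 3. Most S2A/S7A arrays but only replicate 4 of S2A came later in the series, so mutant and order cannot be fully told apart. gdt1 read 1.42 to 1.68 on the earlier S2A arrays and 0.84 on the later, and 1.07 to 1.16 and 0.49 to 0.78 in S2A/S7A. SPAC750.07c read 2.28 and 2.62 on the earlier S2A/S7A arrays and 1.55 to 1.68 on the later. In S2A it read 1.03 to 1.14 and 1.25. dak2 was higher in S2A/S7A by 1.02 ± 0.097 (adjusted p = 3.91e-06), SPAC750.07c by 0.82 ± 0.18 (0.00389), SPAC186.06 by 0.67 ± 0.13 (0.00177) and SPAC186.03 by 0.45 ± 0.075 (0.000682). The 4 lower genes were gdt1 (-0.58 ± 0.15), nhe1 (-0.52 ± 0.13), ftm1 (-0.52 ± 0.14) and plb4 (-0.48 ± 0.069). SPAC212.12 was higher by 0.94 ± 0.27 (adjusted p = 0.023), a call lost without S2A replicate 2 (0.93, 0.0568) or 3 (0.94, 0.0543) or S2A/S7A replicate 2 (0.68, 0.0545). tlh1 (-0.28 ± 0.22, adjusted p = 0.39) was not called.

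Glutamate and alanine at the seventh residue were set against each other in S7E and S7A. Every S7E array but only replicate 4 of S7A came later in the series, so mutant and order cannot be fully told apart. S7E was higher for 8 genes and lower for 14, beside 22.8% and 20.2% of all genes tested. The shares of the 43 genes were 18.6% and 32.6%, the former close to the background. With scaled arrays the split was 6 and 19. Lowest were ftm1 (-1.63 ± 0.16, adjusted p = 2.15e-06), ftm4 (-1.62 ± 0.15, 1.65e-06), SPAC977.17 (-1.23 ± 0.13), SPAC212.04c (-0.98 ± 0.14), SPAC212.09c (-0.95 ± 0.14), SPAC186.04c (-0.94 ± 0.11) and SPAC750.06c (-0.91 ± 0.16). The highest was SPAC977.04 (1.13 ± 0.30), at 0.48 (adjusted p = 0.0383) without S7E replicate 1, and ayr2 (0.86 ± 0.27) was not called without S7E replicate 1 (0.27, 0.147) or S7A replicate 4 (0.73, 0.0516). SPAC186.06 (0.70 ± 0.15) and gdt1 (0.65 ± 0.17) were higher in S7E as well. tlh1 (0.13 ± 0.25, adjusted p = 0.701) was not called, and read -0.84 (0.0123) with scaled arrays.

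Of the differences between mutants that reached 1.5-fold, S2A was higher than S7A for 15 genes and lower for 3 (6.72% and 4.76% of all genes tested). S2A/S7A was higher than S2A for 5 and lower for 0 (2.34% and 1.45%), and higher than S7A for 20 and lower for 3 (5.98% and 4.13%). S7E was higher than S7A for 5 and lower for 10 (6.80% and 5.77%). Without the fold limit, limma called 4 genes lower in S2A/S7A than in S2A, gdt1, nhe1, ftm1 and plb4.

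8 of the 45 genes also had intron and junction probes, the latter spanning 2 joined exons. Values of these probes are given beside those of the exon probes, with no test. Whether each reads only the spliced or unspliced RNA of its gene was not tested. In S7E the junction probes of 4 genes lay below their exon probes, SPAC212.06c among them on the 1 array with a junction value (0.97, against 1.72 to 1.83 on the exon). SPAC212.01c read -0.92 to -0.81 on its junction, -0.017 to 0.61 on its exon and 0.72 to 0.83 on its intron. SPAC750.06c read -0.92 to -0.75 on its junction, 0.087 to 0.26 on its exon and 0.80 to 1.00 on its intron. SPAC212.04c read -1.89 to -1.33 on its junction and -0.56 to 0.012 on its exon, with -0.30 to 0.067 on its intron. For these last 3 the junction values lay below the exon values on the S7E arrays without overlap. In S2A and S2A/S7A the mean junction values of SPAC212.01c (1.84 and 1.91) and SPAC750.06c (1.82 and 1.97) were close to or above the exon means (1.43 and 1.63, 1.78 and 1.89). Those of SPAC212.04c were below its exon means there too, at 1.09 against 1.30 in S2A and 1.07 against 1.25 in S2A/S7A, and at 0.46 against 0.64 in S7A.

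SPAC212.06c had a mean junction value of 0.98 in S2A against 2.61 on its exon and 2.72 on its intron. Its junction values were also the lowest of the 3 probe types in S2A/S7A, with a mean of 0.65 over 4 arrays against 2.59 on the exon and 2.74 on the intron. For SPAC977.06 the order was the reverse. Its mean junction values were 1.09 in S7A, 2.36 in S2A, 1.92 in S2A/S7A and 1.09 in S7E, against exon means of 0.40, 0.93, 1.13 and 0.86. The junction values in S2A, 2.17 to 2.52, did not include the stray S2A replicate 4 value seen on the exon probe. plb4 read alike on exon and junction probes, with means of 0.83 and 0.80 in S2A and 0.76 and 0.85 in S7E, while its intron means were 0.17 and 0.19. nhe1 read -0.69 on the exon and -0.68 on the junction in S2A/S7A. SPAC186.08c had no junction value on any array.

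**Figure D4:**
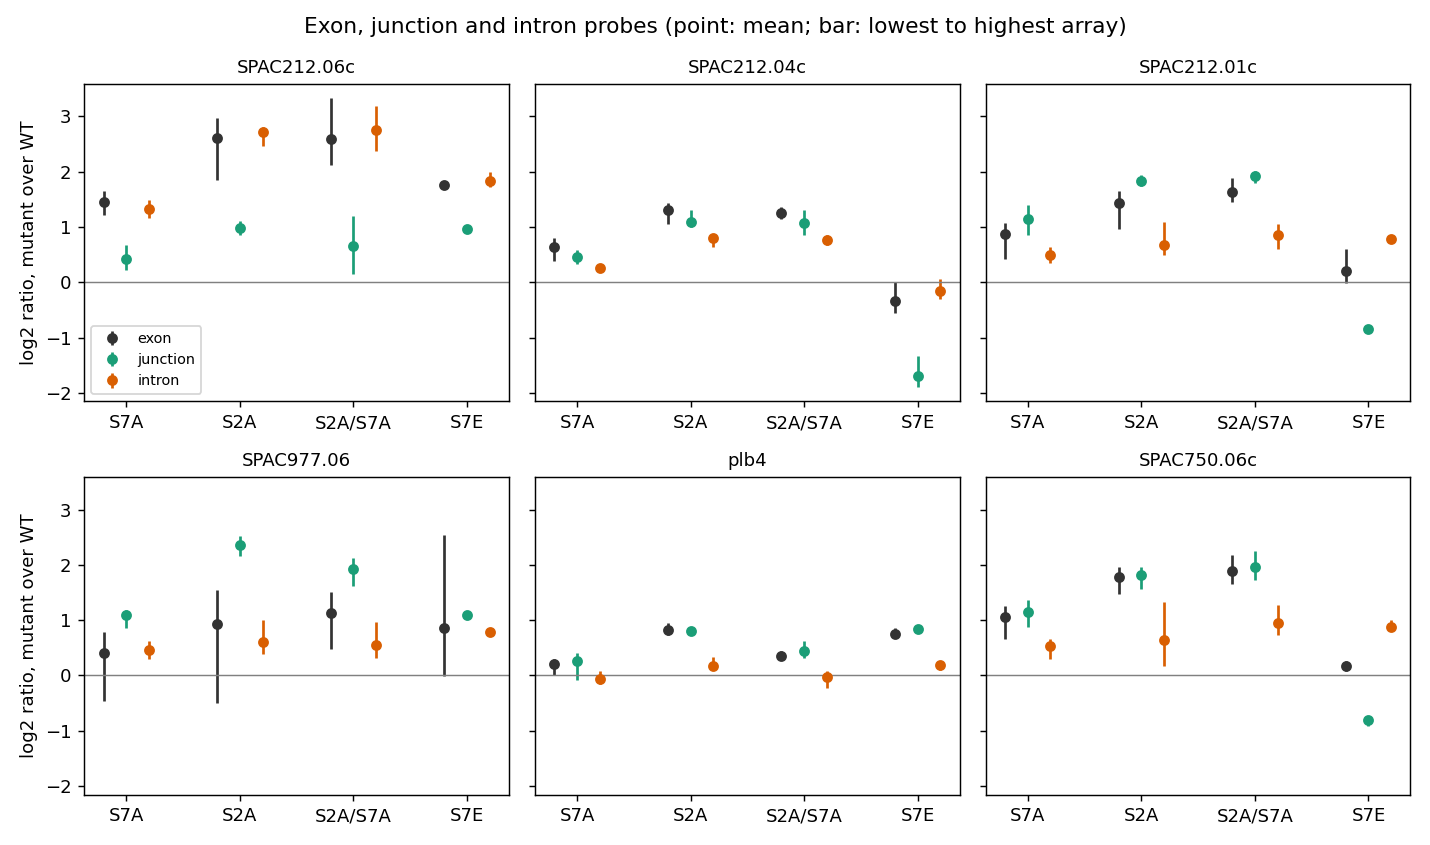
Mean log2 ratio, mutant over WT, of the exon, junction and intron probes (points) with the lowest and highest array (bars) for 6 genes in the 4 mutants. In S7E the junction points of SPAC212.01c, SPAC212.04c, SPAC212.06c and SPAC750.06c lie below their exon points, and the junction points of SPAC977.06 lie above its exon points.

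Some genes gave nearly the same reading on every array. Likeness was measured as the mean absolute difference over the arrays on which both genes had values, for the 861 pairs with at least 12 such arrays, with a median of 0.80. ftm1 and ftm4, at opposite ends, were most alike, with a mean difference of 0.086 over 16 arrays. SPAC977.03 and SPAC750.03c followed at 0.15, also at opposite ends, then SPAC212.02 and SPAC977.04 on the left end at 0.16. SPAC212.12 and SPAC750.07c, at opposite ends, differed by 0.18, SPAC977.14c and SPAC750.01 by 0.20, and tlh1 and SPAC212.06c by 0.21. Among the 12 most alike pairs, 5 joined a left-end with a right-end gene. Arrays are shared by both genes of a pair, and probes that read the same sequence would give this too, which was not tested.

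Other regions were counted in the same way. At the outer ends of chromosome II, of 58 genes tested, 32 rose and 7 fell in S7A, 44 and 10 in S2A, 45 and 8 in S2A/S7A, and 34 and 12 in S7E, with medians of 0.40, 0.89, 1.02 and 0.61. 2 of the genes in that list do not lie at a chromosome end. The next cosmids inward on chromosome I, with 51 genes tested, had the opposite balance: 7 rose and 19 fell in S7A, 11 and 28 in S2A, 10 and 26 in S2A/S7A, and 9 and 26 in S7E. Their medians were -0.10, -0.29, -0.19 and -0.40. In the same order, shares rising were 55.2%, 75.9%, 77.6% and 58.6% on outer chromosome II and 13.7%, 21.6%, 19.6% and 17.6% in the inward cosmids. Over all genes 18.0%, 31.2%, 35.1% and 33.5% rose. Shares falling were 12.1%, 17.2%, 13.8% and 20.7% on outer chromosome II and 37.3%, 54.9%, 51.0% and 51.0% in the inward cosmids. Over all genes 16.6%, 27.1%, 27.8% and 27.6% fell. These are counts and shares, and no difference between the lists was tested.

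**Figure D5:**
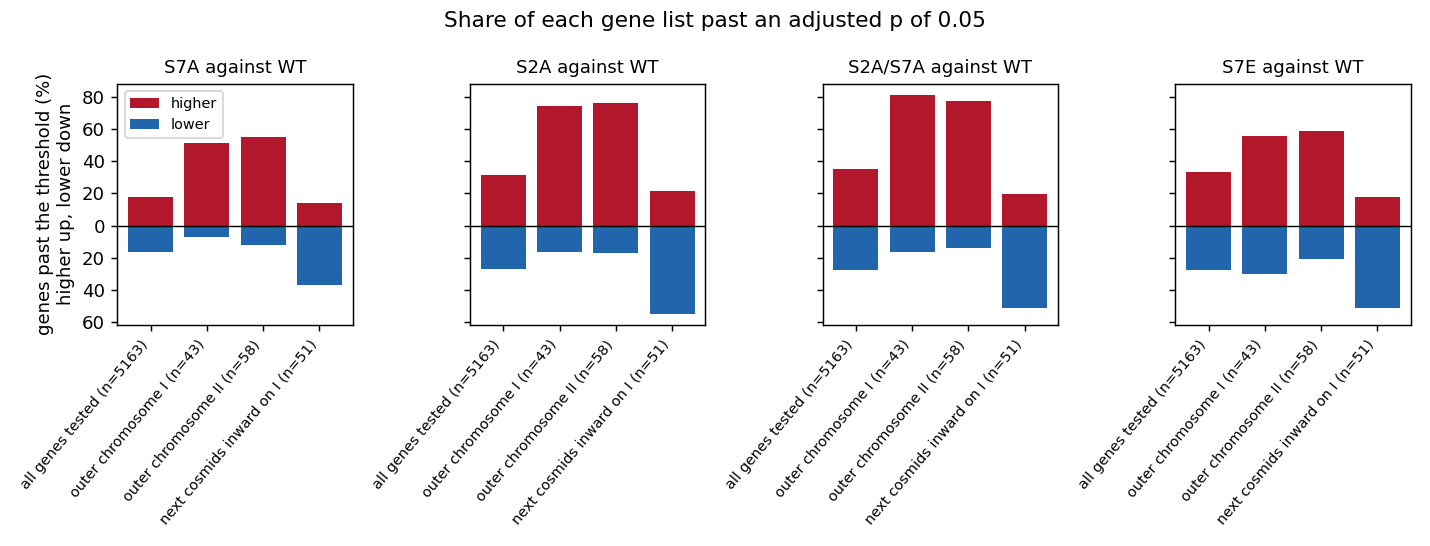
Percent of the genes tested that rose or fell (adjusted p under 0.05) in each mutant, for all 5163 genes, the 43 genes of outer chromosome I, the 58 of outer chromosome II and the 51 of the next cosmids inward on chromosome I. The outer genes of both chromosomes have tall bars for rises, 74.4% and 75.9% in S2A, and the inward cosmids have taller bars for falls, 54.9% in S2A.

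Genes of the telomere and heterochromatin machinery were counted last. Of 10 IDs for 9 telomere-protein genes, 1 rose and none fell in S7A, 3 rose and 1 fell in S2A, 1 rose and 1 fell in S2A/S7A, and 1 rose and 2 fell in S7E. Among 20 heterochromatin genes the counts were 2 and 2, 7 and 1, 9 and 4, and 5 and 5. The rising shares of the telomere genes, 10%, 30.0%, 10% and 10%, were below those over all genes in each mutant. Those of the heterochromatin genes, 10%, 35.0%, 45.0% and 25.0%, lay within 10 points of them. sir2, of the histone deacetylase Sir2, fell by 0.44 ± 0.039 in S2A, by 0.49 ± 0.035 in S2A/S7A and by 0.72 ± 0.045 in S7E. clr3 rose by 0.26 ± 0.07 in S2A, 0.32 ± 0.063 in S2A/S7A and 0.28 ± 0.081 in S7E, and swi6 by 0.26 ± 0.087 in S2A/S7A and 0.30 ± 0.11 in S7E. clr4 was called in no mutant, with differences from -0.15 to 0.17 (limma adjusted p = 0.0936 to 0.858). clr1, of the Clr3 deacetylase complex, rose in all 4 mutants, from 0.12 ± 0.039 in S7A to 0.47 ± 0.046 in S7E. rdp1, of the RNA-dependent RNA polymerase, fell by 0.82 ± 0.057 in S7A and by 0.31 ± 0.067 in S7E and rose by 0.38 ± 0.057 in S2A and 0.31 ± 0.057 in S2A/S7A. What part these changes have in the values of the subtelomeric genes was not tested.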

How the data were processed

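RNA of 4 rpb1 mutants was compared with WT RNA on 16 two-colour Agilent arrays, with the mutant in Cy5 on 7 and in Cy3 on 9 per the labels. The deposited table holds 1 value per probe and array, per the file headers. The deposited values were taken as log2 ratios of mutant over WT, though no source used here states their base or direction, and the sources used here do not say how the authors normalized them. Array medians lay between -0.0265 and 0.0267. Whether WT RNA was shared between arrays is also not given.

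A gene value was the mean of its exon probes. All 16 arrays entered 1 model in limma 3.58.1 under R 4.3.3 (lmFit and eBayes), which held a mean for each of the 4 mutants and, per gene, a term for the dye. It covered the 5163 genes measured on 2 or more arrays of every mutant. Each mean was tested against 0, and 4 differences between mutants were tested, two-sided, with Benjamini-Hochberg adjustment over all genes tested. The fit was tested on simulated data. Every gene of the 4 cosmids is named, those that passed in at least 1 mutant or differed between mutants with their values. The genes and lists were chosen with earlier results of these data known.

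Names and gene order came from a RefSeq table (assembly ASM294v3), which matched 5094 of 5195 IDs. Coordinates served only for gene order and overlap, and no sequences were used. In that annotation 27 of the 45 genes overlap another gene, and the strand that a probe reads is not given. Alternatives were centred or scaled arrays, array weights, no dye term, the compared mutants alone, all probes averaged, repeated values left out, a 1.5-fold limit, a replicate block and leaving out each array or 3 arrays together. Same-numbered arrays of different mutants correlated at r from -0.221 to 0.409 over 21 pairs, so the numbers were not taken as pairs.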

Additional observations from a re-analysis of the deposited data

Results flagged for a closer look

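Among 127 groups of 4 or 5 arrays, 16 had 1 array far from the others of the same mutant by Dixon's 95% critical value, where chance gives about 1 in 20. 8 of the 16 were S2A replicate 4 and 6 were S7A replicate 4. Each is the only array of its mutant among those later in the series. In S2A, replicate 4 read 2.37 for tlh1 (3.15 to 3.22 on the other 3 arrays), 0.92 for SPAC212.05c (1.46 to 1.54), 0.95 for SPAC212.01c (1.56 to 1.65) and 0.84 for SPAC977.04 (1.42 to 1.52). It read 0.59 for SPAC977.14c (1.05 to 1.13), and lay below 0 for SPAC977.06 at -0.50 (1.34 to 1.54), nhe1 at -0.83 (-0.064 to 0.084) and fex1 at -0.76 (-0.28 to -0.21). In S7A, replicate 4 read 0.41 for SPAC212.05c (0.79 to 0.82), 0.41 for SPAC212.01c (0.98 to 1.06) and 0.29 for SPAC977.05c (1.58 to 1.74). It read 0.015 for plb4 (0.26 to 0.30), 0.27 for dak2 (0.70 to 0.76) and 0.70 for ftm4 (1.45 to 1.53). The other 2 were pdc102 on S2A replicate 2, at 0.32 (0.54 to 0.57), and SPAC186.07c on S7A replicate 3, at 0.21 (0.12 to 0.13). The groups of 3 arrays in S7E were left out of this check, so S7E replicate 1 was not checked in this way.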

How the results depend on the processing

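With 3 to 5 arrays per mutant and 1 exon probe per gene, small differences rest on single arrays. Of 4448 values of single genes against WT under the alternatives, 4321 kept their side of the threshold, 66 lost a call and 61 gained one. 0 changed sign with a call in the main fit or the alternative. For differences between mutants the numbers were 4226, 122, 93 and 7 of 4448. Values that changed sign without a call in either fit are counted among the 4321 and 4226.

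The 7 that changed sign with a call in either fit were mostly with arrays scaled to equal spread. SPAC750.07c read -0.48 (adjusted p = 0.0299) for S2A against S7A and -0.55 (0.0266) for S7E against S7A. ftm4 and ftm1 read -0.098 and -0.15 for S2A/S7A against S7A, and tlh1 and SPAC212.08c read -0.84 and -0.0545 for S7E against S7A. Without the 3 arrays that stand apart, SPAC977.06 read -0.58 (0.0303) for S7E against S7A. That setting leaves no S7A array among those later in the series, so mutant and order cannot be told apart in it. The cause was not tested.

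With scaled arrays the genes higher numbered 10 for S2A against S7A and 12 for S2A/S7A against S7A. Array weights gave 8 genes lower for S2A/S7A against S2A, and leaving out the 3 arrays together also gave 8. Counting only changes of at least 1.5-fold, 1 gene was lower in S7A, 2 in S2A, 3 in S2A/S7A and 6 in S7E. Between mutants that limit left 3 lower for S2A against S7A, 5 higher and 0 lower for S2A/S7A against S2A, 3 lower for S2A/S7A against S7A and 5 higher for S7E against S7A. That alternative sets a stricter limit by construction.

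Leaving out each array in turn gave 21 to 25 genes higher and 1 to 3 lower in S7A, 30 to 33 and 6 to 7 in S2A, 34 to 36 and 6 to 7 in S2A/S7A, and 21 to 25 and 9 to 14 in S7E. For S2A against S7A it gave 17 to 21 and 5 to 8, for S2A/S7A against S2A 6 to 11 and 4 to 5, for S2A/S7A against S7A 23 to 26 and 6 to 9, and for S7E against S7A 6 to 11 and 12 to 15.

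With the replicate number as a block, 22 rose and 3 fell in S7A, 32 and 7 in S2A, 35 and 6 in S2A/S7A, and 22 and 14 in S7E. The same block gave 18 and 7 for S2A against S7A, 8 and 5 for S2A/S7A against S2A, 24 and 7 for S2A/S7A against S7A, and 8 and 15 for S7E against S7A. Under the block SPAC977.05c in S7E was 0.28 (adjusted p = 0.349), SPAC186.08c in S7E 0.24 (0.0891), pdc102 in S7A 0.18 (0.191) and SPAC977.12 in S2A/S7A -0.097 (0.0705), none called. SPAC750.03c in S7A (0.52, 0.0176) and SPAC977.13c in S7E (-0.34, 0.0288) were called. Same-numbered arrays correlated over 0.1 in 9 of 21 pairs, among them the 3 pairs of replicate 4 (0.174 to 0.295). Since not every pair did, the numbers were not taken to pair the samples.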
